A study of Mus musculus with 8 samples.

Results

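Cell-surface receptors and adhesion molecules were followed through ribosome profiling of Dis3l2 knockout and control mouse embryonic stem cells (mESCs). They were chosen by gene symbol, and the symbols were those of integrins (Itga, Itgb), cadherins (Cdh), protocadherins (Pcdh), nectins, Eph receptors, plexins, semaphorins, Robo receptors, Frizzled and LRP receptors, Notch receptors, receptor tyrosine phosphatases (Ptpr), FGF receptors and TGF-beta superfamily receptors (Acvr, Bmpr, Tgfbr), together with Igf1r, Igf2r and Insr. This took 69 of the 8125 genes of the table analysed. Of these, 65 encode cell-surface proteins. The other 4 share a symbol prefix but encode intracellular proteins: Itgb1bp1 (a partner of the integrin beta tail), Itgb3bp (a centromere protein), Fgfr1op (a centrosome protein) and Fgfr1op2. They were kept in all counts over the 69 members and left out of the counts by role.

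Both genotypes were undifferentiated TC1 mESCs grown with LIF and serum on gelatin without feeder cells. Control cells were heterozygous for Dis3l2 (+/-) and knockout cells lacked it (-/-) after CRISPR/Cas9 editing. The sources used here do not say whether each genotype was 1 clone, so that clone, batch and genotype cannot be told apart. Cells were treated with cycloheximide, and the 8 libraries were 2 of input mRNA and 2 of ribosome-protected fragments (RPFs) per genotype. RPFs are the stretches of mRNA that a translating ribosome shields from nuclease. Translation efficiency (TE) was the RPF value over the input value. The study calls its repeats biological replicates of ESC cultures. The genotype names were not checked against Dis3l2, which is not analysed here. All changes are knockout over control, as the library columns are named. The fold change that the authors deposited beside them runs with the opposite sign, the intended direction was not settled, and every signed value below would turn with it.

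These proteins are made at the endoplasmic reticulum. A signal peptide, the hydrophobic stretch at the start of the nascent chain, is bound by the signal recognition particle, which carries the ribosome to the ER membrane, and the receptor then passes through the secretory pathway to the cell surface. In mESCs E-cadherin and nectins hold the cells of a colony together, integrins bind them to laminin and fibronectin, and Activin/Nodal, BMP, FGF, Wnt, Notch and insulin-like growth factor receptors carry the signals that keep or end pluripotency.

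The start of the coding sequence is shown for 5 of the cell-surface members on which the results below turn, and for the intracellular Fgfr1op as a contrast, because the hydrophobic stretch was not used to choose the members. Each run is the first 90 coding bases of the principal transcript, 5′ to 3′. The capitals mark the codons of the 8 residues with the highest mean hydropathy (Kyte-Doolittle scale) among the first 40 residues.
Epha4: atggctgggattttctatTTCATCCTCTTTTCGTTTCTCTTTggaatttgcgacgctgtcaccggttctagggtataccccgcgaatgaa
Cdh3: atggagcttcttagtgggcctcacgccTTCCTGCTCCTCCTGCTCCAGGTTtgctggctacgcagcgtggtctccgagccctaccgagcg
Sema4b: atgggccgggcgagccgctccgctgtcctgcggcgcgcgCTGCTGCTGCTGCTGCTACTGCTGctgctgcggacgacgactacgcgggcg
Lrp5: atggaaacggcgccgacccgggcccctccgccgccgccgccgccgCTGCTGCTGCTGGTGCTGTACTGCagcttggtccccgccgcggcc
Tgfbr1: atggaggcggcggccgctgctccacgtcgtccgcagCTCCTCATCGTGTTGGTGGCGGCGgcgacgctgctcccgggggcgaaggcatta
Fgfr1op: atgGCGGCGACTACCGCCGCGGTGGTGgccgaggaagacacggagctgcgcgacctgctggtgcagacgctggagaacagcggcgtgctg

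The marked window had a mean hydropathy of 2.81 in Epha4, 2.81 in Cdh3, 3.8 in Sema4b, 3.05 in Lrp5 and 3.49 in Tgfbr1, and of 1.77 in Fgfr1op. A window of at least 2.4 was found in 51 of the 65 cell-surface members (78.5%), in 0 of the 4 intracellular ones and in 1039 of 8104 genes with a coding sequence (12.8%). In GRCm38 these genes lie at chr1:77367185-77515088 (Epha4, minus strand), chr8:106510891-106557297 (Cdh3, plus), chr7:80186841-80226527 (Sema4b, plus), chr19:3584828-3686564 (Lrp5, minus), chr4:47353222-47414931 (Tgfbr1, plus) and chr17:8165501-8196804 (Fgfr1op, plus). The runs shown are coding exon sequence. All 5 cell-surface members shown reached 2.4, while Ptprj (0.31), Ephb4 (1.975), Itga6 (2.175) and Notch2 (2.21), also described below, did not.

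Depth differed between input and RPF libraries and also between genotypes. Both knockout libraries were shallower than both control libraries in RPF and deeper in input. Reads over all genes ranged from 8382211 to 33609787 in input, from 558962 to 1126782 in control RPF and from 140163 to 268255 in knockout RPF. The median member had 21 and 44 RPF reads in control. It had 10 and 5 in knockout, where 32 and 47 of the 69 members had under 10 reads. Members together took 0.503% and 0.481% of reads in control input and 0.467% and 0.482% in knockout input, and of RPF reads 0.506% and 0.508% in control and 0.508% and 0.487% in knockout. These shares overlapped between genotypes in both kinds of library. All 10 stem cell markers listed (Pou5f1, Nanog and Sox2 among them) were present and 0 of 10 differed in input by limma, where the smallest p-values were those of Utf1 (log2 change -0.30) and Tcl1 (-0.36). Over the 10 markers the median log2 change was -0.04, and 3 were above 0. Of 9 primitive endoderm markers 2 were among the genes analysed (Cubn and Dab2), with a summed input value of 46.8 and 33.5 in control and 73.3 and 80.7 in knockout libraries. Cubn passed, with a log2 change of 0.74 (limma, adjusted p = 0.017). Of 8 fibroblast markers only Cald1 was among the genes analysed, at 39.8 and 36.01 in control input and 50.8 and 56.8 in knockout input (log2 change 0.41, adjusted p = 0.142). Of 5 neural markers Tubb3, Ncam1 and Sox1 were, with 0 of 3 passing in input and summed input values of 423 and 424 in control and 434 and 422 in knockout. None of the 5 mesoderm or 5 trophoblast markers was among them.

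Levels of different members were set side by side per kb of coding length, as the mean of the 4 libraries of a kind. Cdh1, E-cadherin, had the highest RPF level, 548 normalised units per kb, followed by Itgb1, the integrin beta subunit shared by most laminin and fibronectin receptors, with 322, Epha2 with 185, the laminin receptor subunit Itga6 with 160.2 and Nectin2 with 145. In input the same 5 genes led in another order, with Itgb1 at 444, Cdh1 at 253, Itga6 at 178, Epha2 at 176 and Nectin2 at 140.3. At the other end stood Itgae and Itgal, alpha subunits of leukocyte integrins, with 4.29 and 4.84 RPF units per kb. The ranges over libraries of Cdh1 and Itgb1 did not meet, while those of Epha2, Itga6 and Nectin2 overlapped.

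**Figure D1:**
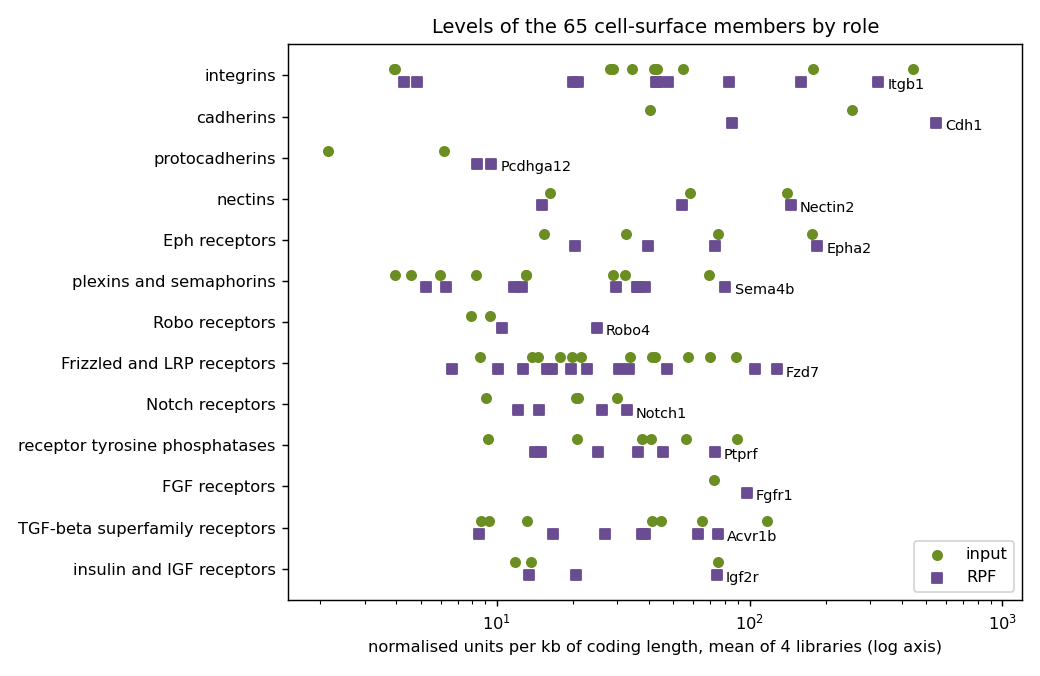
Level of each of the 65 cell-surface members by role, as normalised units per kb of coding length on a log axis (circles, mean of 4 input libraries; squares, mean of 4 RPF libraries), with the member of the highest RPF level named. Cdh1 stands highest in RPF at 548 units per kb and Itgb1 in input at 444.

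The input libraries addressed whether mRNA levels of these genes differed between genotypes. Most members were slightly lower in knockout. Of the 67 members that passed the filter on low values, 45 (67.2%) had a log2 change below 0, against 48.7% of the 7946 genes tested, and the median log2 change was -0.06 over members and 0.00 over all genes. Both knockout values lay below both control values in 30 of the 67 members (44.8%, against 21.1% of all genes tested) and above them in 9 (13.4%, against 22.9%). Only Epha4, which rose, passed the test (1 of 67 members, 1.49%, against 0.34% of all genes called by limma at an adjusted p under 0.05). An unadjusted p under 0.05 was found in 11 members that were lower and in 1 that was higher, Epha4 itself, against 492 lower and 520 higher among all genes. The count of lower members was 41 of 68 without control input replicate 1, where it was 60.3% against 47.2% of all genes. In these bulk samples fewer cells of a type and less RNA per cell cannot be told apart. Input values of Cubn and Cald1 did not overlap between genotypes, nor did those of Utf1 and Tcl1, the stem cell markers of smallest p. The 10 stem cell markers together had a median log2 change of -0.04, with 3 above 0. The part of these genes in the member changes was not tested.

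**Figure D2:**
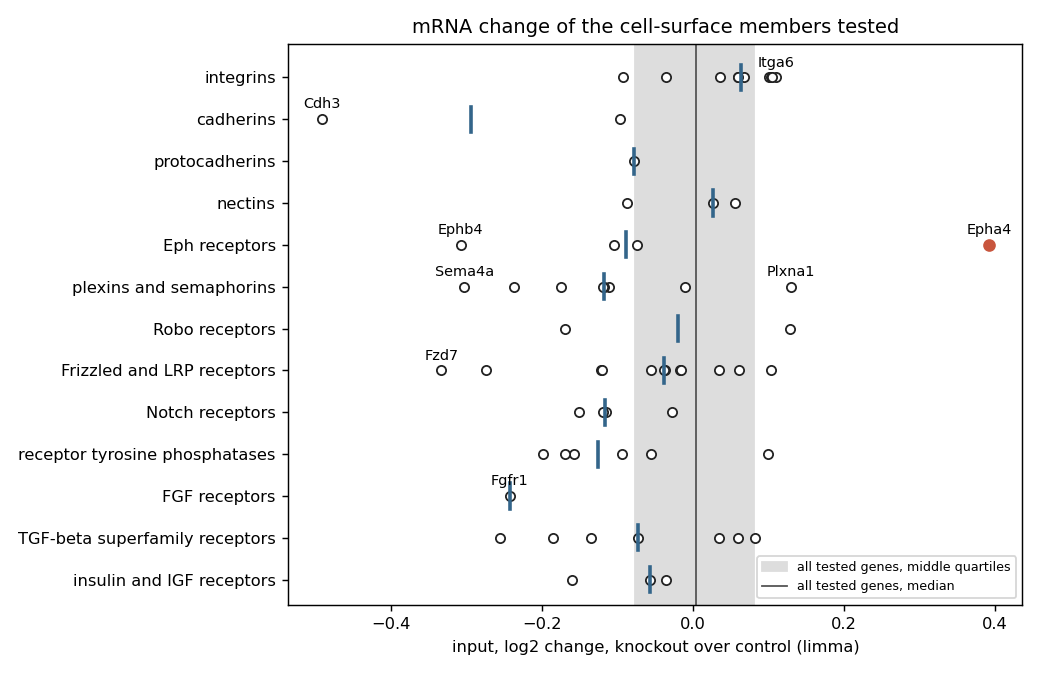
Log2 change of input, knockout over control, for each cell-surface member tested, by role (limma). The filled point is Epha4, the member that passed; bars mark the median of a role, and the grey band and line mark the middle quartiles and median of all tested genes. Integrins lie mostly right of the line and every other role except the nectins has a median below 0.

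Among RPFs the members did not shift as a set. Of the 49 members that passed the filter on RPF values, 23 were higher and 26 lower in knockout, with a median log2 change of -0.02, as over all 6260 genes tested (-0.02). None of the 49 passed limma's test (0 of 49, against 0.623% of all genes called), and 4 had an unadjusted p under 0.05 (8.16%, against 10.8% of all genes), all lower. In 9 members both knockout values exceeded both control values (18.4%, against 21.6% of all genes tested), and in 9 they lay below them (18.4%, against 20.8%). edgeR on whole reads called 1 member, Sema4b, where it called 1.44% of all genes. DESeq2 gave no adjusted p for 42 of the 49 members, Sema4b and Fgfr1 among them, and called 0 of the 7 others, where it called 3.67% of the genes for which it gave one. In simulated RPF libraries of this depth, with changed genes drawn from all genes tested, limma recovered 20.4% of 2-fold and 83% of 4-fold changes. A 2-fold change of RPFs would thus mostly have been missed over all genes. Recovery was not simulated for members alone, whose median in knockout was 10 and 5 reads against 14 and 7 over all genes.

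For TE the picture was the same. Of the 49 members 24 were higher and 25 lower, with a median log2 change of -0.02 as over all 6240 genes (-0.02), and 0 passed limma (against 0% of all genes). An unadjusted p under 0.05 was found in 3 members (6.12%, against 13% of all genes). All 3 were lower, and 6.83% of all genes were lower with such a p. The TE values of the libraries of the same number put both knockout values above both control values in 9 members (18.4%, against 21% of all genes) and below them in 7 (14.3%, against 20.8%). edgeR called 0 members, where it called 1.17% of all genes, and DESeq2 called 1, Sema4b, where it called 2.45%. In the same simulation over all genes limma recovered 14% of 2-fold and 62.5% of 4-fold changes of TE. The median TE of the cell-surface members tested was 1.01 and 1.18 in control and 1.22 and 0.989 in knockout, and that of all genes was between 1.02 and 1.04, so that members lay above the other genes in replicate 2 of control and replicate 1 of knockout and slightly below in the other libraries.

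**Figure D3:**
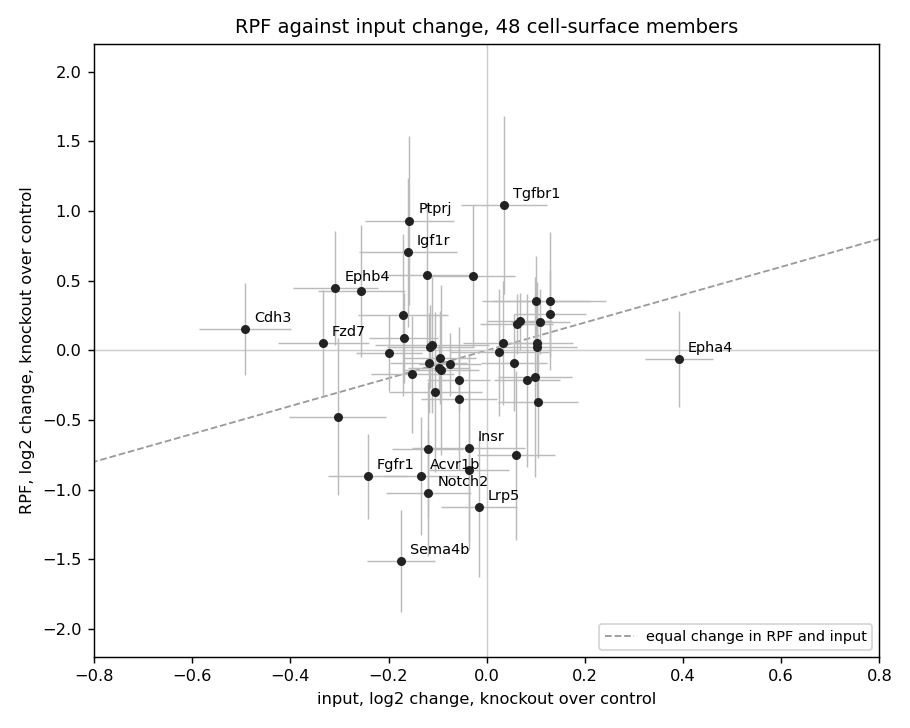
Log2 change of RPFs against log2 change of input, knockout over control, for the 48 cell-surface members tested in both (points, limma estimates; bars, ± 1 SE; dashed line, equal change). RPF changes span -1.51 (Sema4b) to 1.04 (Tgfbr1), while input changes span -0.49 (Cdh3) to 0.39 (Epha4), and none of the RPF changes passed.

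Integrins are pairs of alpha and beta subunits that bind the matrix outside and the actin cytoskeleton inside, and 10 were measured. In input 8 of 10 were above 0 (against 51.3% of all genes tested), with a median log2 change of 0.06. Every other role except the nectins had a median below 0. Itga6 measured 551 and 549.9 units in control input and 587 and 603 in knockout input, a log2 change of 0.11 (SE 0.06, adjusted p = 0.481). Its RPF values were 457 and 498 in control and 501 and 606 in knockout. Both kinds of library thus had the knockout values above the control values, without passing the test. Itgb1 measured 986 and 1089 in control input and 1073 and 1099.5 in knockout input, where the groups overlapped. Its RPF values of 689 and 741 in control and 879 and 778 in knockout did not overlap, with a log2 change of 0.21 (SE 0.20, adjusted p = 0.756). Among the 8 integrins tested in RPF, log2 changes ran from -0.86 (Itga9) to 0.35 (Itga5, the fibronectin receptor subunit), and 0 passed.

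Cadherins join neighbouring cells through calcium-dependent contacts. Cdh1 measured 709 and 681 in control input and 631 and 667 in knockout input. RPFs were at 1485 and 1549 in control and 1438 and 1337 in knockout. Both were a little lower in knockout without overlap and without passing, and TE overlapped, at 2.10 and 2.27 in control and 2.28 and 2.01 in knockout. Cdh1 had the most RPF reads of all members, 1176 in control and 261 in knockout: the RPF ratio of knockout over control was 0.918 (0.8 to 1.05, 95% interval for counting error only). Cdh3, P-cadherin, had the most negative change of all members in input, at 125 and 111 in control and 74.7 and 87.4 in knockout, a log2 change of -0.49 (SE 0.09). It missed the threshold in limma (adjusted p = 0.066) and passed in DESeq2 (adjusted p = 0.019; 0.000248 to 0.119 over all alternatives), which called 0.821% of all genes in input. RPFs of Cdh3 did not follow, with 224 and 171 in control and 181 and 264 in knockout, and its TE of 1.79 and 1.54 in control and 2.42 and 3.02 in knockout did not overlap between genotypes (log2 change 0.64, SE 0.34, limma adjusted p = 0.472).

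**Figure D4:**
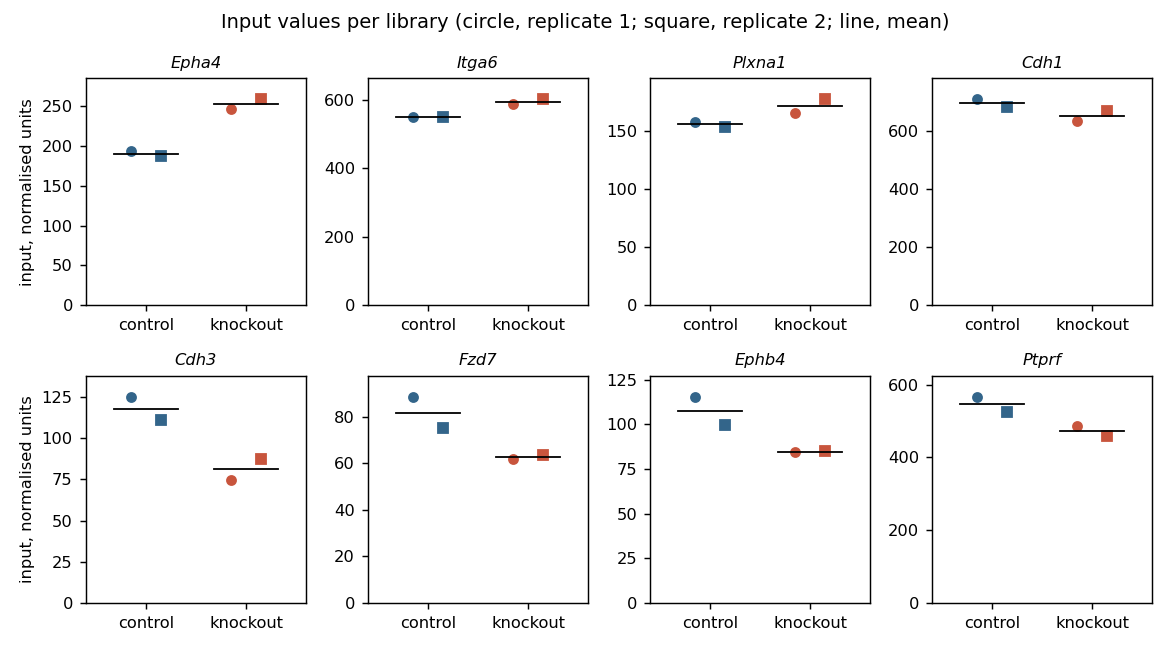
Input values in normalised units of 8 members in the 4 input libraries (circles, replicate 1; squares, replicate 2; line, group mean). Epha4 is higher in both knockout libraries (247 and 259 against 194 and 187), and Cdh3, Fzd7, Ephb4 and Ptprf are lower in both.

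Nectins are immunoglobulin-like adhesion molecules tied to actin by afadin. Nectin2 measured 213 and 224 in control input and 227 and 229 in knockout input. In RPF it had 224 and 240.5 in control and 304 and 156 in knockout, so that the knockout libraries lay on either side of the controls. Nectin1 had a TE above 2.7 in every pair of libraries (3.20, 3.59, 2.77 and 3.86) and did not differ between genotypes beyond their spread. Nectin3 had 31 RPF reads in control and 2 in knockout and was not tested. The protocadherins Pcdhga12 and Pcdhgc3 belong to a gene cluster whose members share their constant exons, so that reads could be split between them. Pcdhga12 measured 7.32 and 5.50 in control input and 5.15 and 6.04 in knockout input, the lowest input level per kb of all members. In RPF it had 39.4 and 19.4 in control and 16.4 and 31.1 in knockout, and both protocadherins were too low for the RPF test.

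Eph receptors are tyrosine kinases that answer ephrins on touching cells. Epha4 was the member that rose in input, at 194 and 187 in control and 247 and 259 in knockout (190.4 ± 5.08 and 253 ± 8.46, mean ± SD, n = 2), a log2 change of 0.39 (SE 0.07, limma adjusted p = 0.0477). Over 13 alternatives its log2 change stayed between 0.36 and 0.43, with adjusted p-values between 0.00272 and 0.126; it did not pass with the stricter filter on low values or without knockout input replicate 2 (adjusted p = 0.126). The RPF values of Epha4, 244 and 190.05 in control and 271 and 156 in knockout, overlapped, and its log2 change of TE was -0.46 (SE 0.36, adjusted p = 0.638). Ephb4, the receptor of ephrin-B2, lay on the other side. It measured 115 and 99.5 in control input and 84.3 and 84.99 in knockout input, a log2 change of -0.31 (SE 0.09, adjusted p = 0.218). RPF values of Ephb4 were 94.5 and 98.9 in control and 107 and 171 in knockout, higher in both knockout libraries, and TE was 0.819 and 0.994 in control and 1.27 and 2.01 in knockout (log2 change 0.75, SE 0.35, adjusted p = 0.407). Epha2, the Eph receptor of the highest level, did not pass in any comparison, with input values of 545 and 515 in control and 506 and 499.8 in knockout. RPFs of Epha2 were at 519.9 and 607 in control and 534 and 513 in knockout. Input was slightly lower in both knockout libraries and RPFs overlapped.

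Semaphorins are guidance cues, in class 4 themselves membrane proteins, and plexins are their receptors. In input 7 of the 8 tested were below 0, against 48.7% of all genes tested. Sema4b was the member of the smallest p in RPF and in TE. Its RPF values were 347 and 248 in control and 73.9 and 124 in knockout (297 ± 69.5 and 99.2 ± 35.7, mean ± SD, n = 2), on 216 control reads and 17 knockout reads. Its log2 change was -1.51 (SE 0.37, limma adjusted p = 0.101), it passed in edgeR (adjusted p = 0.0143), and DESeq2 gave an unadjusted p of 0.0041 and no adjusted one. Over 11 alternatives the log2 change of RPFs lay between -1.85 and -1.18, with adjusted p-values from 7.04e-07 to 1. Counting error alone put the RPF ratio at 0.326 (0.186 to 0.534). Input of Sema4b was also lower, at 182 and 179.8 in control and 158 and 160.3 in knockout, so that the difference in TE was smaller than in RPFs: TE was 1.904 and 1.38 in control and 0.468 and 0.776 in knockout, a log2 change of -1.34 (SE 0.37, limma adjusted p = 0.261; DESeq2 adjusted p = 0.0201; 0.0116 to 0.932 over 16 alternatives). No other semaphorin or plexin tested passed. Sema4a had a log2 change of RPFs of -0.48 (SE 0.56, adjusted p = 0.805). Plxna1 measured 158 and 154 in control input and 166 and 178 in knockout input (log2 change 0.13, SE 0.07, adjusted p = 0.487), and its RPF values of 217 and 180.4 in control and 263 and 218 in knockout were also the higher ones in knockout.

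Robo receptors bind Slit proteins. Robo4, known from endothelial cells, measured 24.9 and 20.3 in control input and 28.1 and 23.1 in knockout input. RPFs were at 70.9 and 58.2 in control and 65.7 and 109 in knockout, which overlapped, as did those of Robo1.

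Frizzled proteins bind Wnt together with the coreceptors Lrp5 and Lrp6, while Lrp1 and Lrp2 are large endocytic receptors. Fzd7 measured 88.6 and 75.02 in control input and 61.6 and 63.7 in knockout input, a log2 change of -0.33 (SE 0.09, adjusted p = 0.218). RPFs of Fzd7 were at 224 and 190.05 in control and 139.7 and 327 in knockout. The knockout RPF libraries thus disagreed, one below and one above both controls, although input was lower in both. Lrp5 showed the reverse pattern, with input values of 169.6 and 157 in control and 154 and 169 in knockout that overlapped and RPF values of 126 and 91.1 in control and 41.1 and 46.7 in knockout that did not. TE of Lrp5 was 0.743 and 0.579 in control and 0.266 and 0.276 in knockout, a log2 change of -1.11 (SE 0.31, adjusted p = 0.264), and the knockout values rested on 5 and 3 reads. Its paralogue Lrp6, with TE of 0.245 and 0.459 in control and 0.375 and 0.314 in knockout, had a log2 change of 0.02 (SE 0.34), and the difference between the paralogues was not tested. Lrp2, megalin, which works with cubilin, did not change as Cubn did: it measured 601 and 522 in control input and 587 and 583 in knockout input.

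Notch receptors are cut at the membrane on binding a ligand of a neighbouring cell. All 4 were below 0 in input (against 48.7% of all genes tested), with log2 changes from -0.15 (Notch3) to -0.03 (Notch4), and 0 passed. Notch1 measured 181 and 152 in control input and 147 and 157 in knockout input. RPFs of Notch1 were at 268 and 223 in control and 222 and 279.9 in knockout. Neither differed beyond the replicate spread. Notch2 had RPF values of 228 and 269.6 in control and 214 and 62.2 in knockout, a log2 change of -1.02 (SE 0.45, adjusted p = 0.433), and input values of 245 and 219 in control and 197 and 229 in knockout. The lower RPF mean of Notch2 came from knockout replicate 2, with 4 reads, and without that library the change was -0.21. Without knockout replicate 1, which leaves replicate 2 as the lone knockout RPF library, it was -1.84.

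TGF-beta superfamily receptors are serine/threonine kinases, type I and type II, that phosphorylate Smads. Acvr1b, the type I receptor of Activin and Nodal, measured 102 and 105 in control input and 91.6 and 94.9 in knockout input. In RPF it measured 173 and 128 in control and 90.4 and 62.2 in knockout. RPFs were thus lower in both knockout libraries (log2 change -0.90, SE 0.42, adjusted p = 0.457). Tgfbr1, the type I receptor of TGF-beta, went the other way with the same input in both genotypes, 62.95 and 59.8 in control and 59.98 and 66.3 in knockout. Its RPF values were 43.3 and 21.3 in control and 115 and 46.7 in knockout, on 22 control reads and 17 knockout reads. Their mean was 32.3 in control, under the filter of 50 on RPF values, and 80.8 in knockout. Tgfbr1 thus passed the filter through knockout alone, so that entry to the test favoured a rise. The log2 change of RPFs was 1.04 (SE 0.64, adjusted p = 0.58) and that of TE 1.01 (SE 0.59, adjusted p = 0.505). Pooling reads over replicates, which weights the deeper libraries, put the RPF ratio at 3.2 (1.59 to 6.3, counting error only), against 2.06 by limma. Over 10 alternatives the log2 change of RPFs lay between 0.26, when libraries were thinned to equal depth, and 1.61, without knockout RPF replicate 2, with adjusted p-values from 0.0185 to 1, and it was 0.66 without control RPF replicate 2. That of TE lay between 0.20 and 1.603 (adjusted p-values from 0.0381 to 0.935), and both passed only without knockout RPF replicate 2. The BMP receptor Bmpr1a had a TE of 0.519 and 0.213 in control and 0.419 and 0.163 in knockout, so that libraries of the same genotype differed more than the genotypes. Acvr2a, a type II receptor, had 1, 2, 4 and 4 RPF reads in the 4 libraries and Bmpr2 6, 5, 7 and 1, and neither was tested.

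Fgfr1 was the FGF receptor among the genes analysed. It was lower in knockout at both levels. Input values were 204 and 186 in control and 154 and 172 in knockout, a log2 change of -0.24 (SE 0.08, adjusted p = 0.28). RPF values were 347 and 287 in control and 173 and 156 in knockout (317 ± 42.1 and 164 ± 12.05, mean ± SD, n = 2), a log2 change of -0.90 (SE 0.30, adjusted p = 0.303). TE was 1.70 and 1.54 in control and 1.12 and 0.903 in knockout, a log2 change of -0.66 (SE 0.24, adjusted p = 0.335), and the RPF ratio was 0.543 (0.361 to 0.792, counting error only). None of the 3 differences passed limma with all libraries. The log2 change of RPFs was -0.975 without knockout RPF replicate 1 and -0.834 without replicate 2, fits that leave 1 knockout RPF library. It lay between -1.037 and -0.773 over 12 alternatives.

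**Figure D5:**
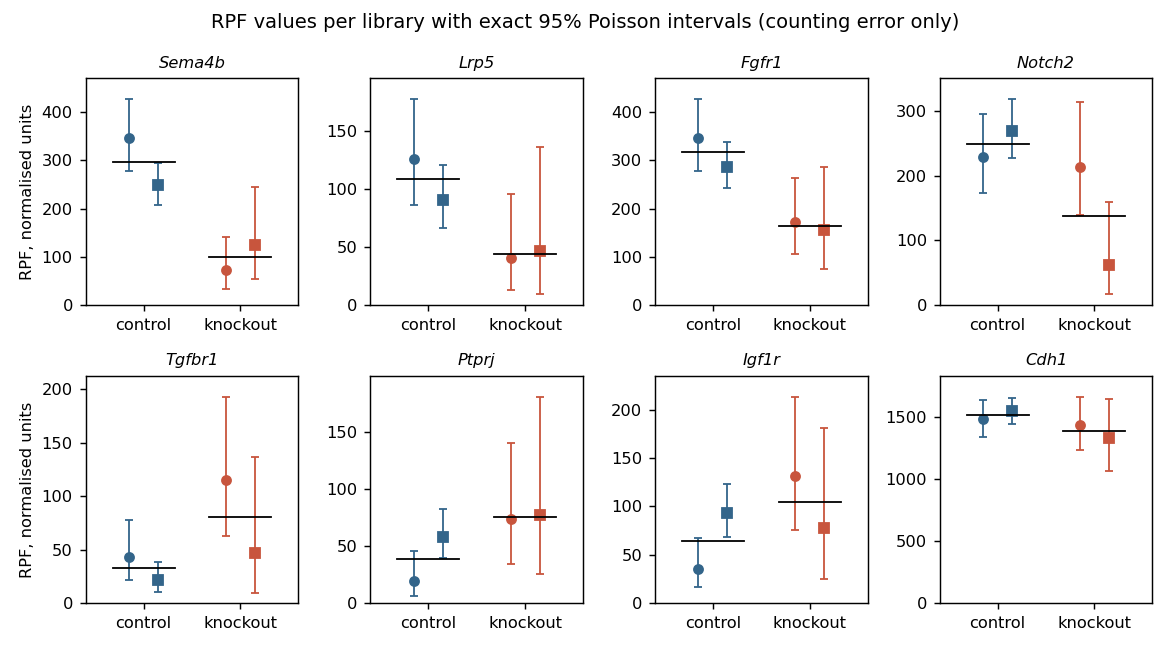
RPF values in normalised units of 8 members in the 4 RPF libraries (circles, replicate 1; squares, replicate 2; bars, exact 95% Poisson intervals, counting error only; black line, group mean). Sema4b, Lrp5 and Fgfr1 are lower in both knockout libraries, Tgfbr1 and Ptprj higher in both, Notch2 is low in knockout replicate 2 only, and Cdh1 has the narrowest intervals for its level.

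The insulin and IGF receptors are tyrosine kinases of growth and metabolism, apart from Igf2r, which carries mannose 6-phosphate proteins and removes IGF2. Igf2r measured 588 and 554 in control input and 542 and 554 in knockout input, and 591 and 595 in control RPF and 542 and 482 in knockout RPF (log2 change of RPFs -0.21, SE 0.22, adjusted p = 0.776). Igf1r measured 65.6 and 53.8 in control input and 51.8 and 52.5 in knockout input, and 35.4 and 93.1 in control RPF and 131 and 77.8 in knockout RPF (log2 change of RPFs 0.70, SE 0.53, adjusted p = 0.66). Insr measured 56.1 and 43.3 in control input and 44.5 and 51.4 in knockout input, and 70.9 and 60.1 in control RPF and 73.9 and 15.6 in knockout RPF (log2 change of RPFs -0.70, SE 0.67, adjusted p = 0.748). The groups overlapped in RPF for Igf1r and Insr, for which knockout replicate 2 held 5 and 1 reads, and did not overlap for Igf2r. Insr had a mean RPF value of 65.5 in control and 44.7 in knockout, under the filter of 50 on RPF values. It thus passed the filter through control alone, so that entry to the test favoured a fall.

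Receptor tyrosine phosphatases remove phosphate from tyrosine next to adhesion sites. In input 5 of 6 were below 0 (against 48.7% of all genes tested), with a median log2 change of -0.13. Ptprf measured 567 and 524 in control input and 488 and 460.2 in knockout input, a log2 change of -0.20 (SE 0.07, adjusted p = 0.288). RPFs of Ptprf were at 414 and 409 in control and 320.4 and 513 in knockout. Input was thus lower in both knockout libraries and RPFs lay on either side. Ptprj measured 40.02 and 39.8 in control input and 33.97 and 35.5 in knockout input. Its RPF values were 19.7 and 58.2 in control and 73.9 and 77.8 in knockout. Their mean was 38.9 in control, under the filter of 50 on RPF values, and 75.9 in knockout. Ptprj thus passed the filter through knockout alone, so that entry to the test favoured a rise. TE of Ptprj was 0.492 and 1.46 in control and 2.18 and 2.19 in knockout. That was a log2 change of TE of 1.09 (SE 0.54, adjusted p = 0.435), on 5 and 30 control reads and 9 and 5 knockout reads. Its size turned on the control libraries, at 0.49 without control RPF replicate 1 and 1.69 without control RPF replicate 2 (adjusted p-values of 0.115 to 0.932 over 15 alternatives).

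TE of group means past 2-fold was also counted, without a test. It was higher in knockout in 6 of 69 members (8.7%, against 6.94% of all genes) and lower in 4 (5.8%, against 5.54%), shares near those of all genes. The higher ones were Acvr2a, Itgae, Sema6c, Bmpr2, Tgfbr1 and Ptprj, and the lower ones Nectin3, Sema4b, Lrp5 and Plxnb1. All 10 had under 50 RPF reads in the knockout libraries together, and 6 of the 10 were below the filter of the test. Of those 6, RPFs of Nectin3 were at 31.5 and 44.6 units in control and 8.22 and 15.6 in knockout, and those of Plxnb1 at 51.2 and 42.7 in control and 24.6 and 15.6 in knockout. Sema6c had 27.6 and 15.5 in control and 41.1 and 46.7 in knockout, and Itgae 3.94 and 7.76 in control and 32.9 and 15.6 in knockout. The values of Acvr2a were 3.94 and 3.88 in control and 32.9 and 62.2 in knockout, and those of Bmpr2 23.6 and 9.70 in control and 57.5 and 15.6 in knockout. The genotypes did not overlap in the first 5 of these and overlapped in Bmpr2. All 6 were picked for their change of TE, so that non-overlap was favoured in advance and adds no evidence. A step of 1 read was 15.6 units in the shallowest library. The interval of the RPF ratio for counting error alone held 1 in 5 of the 10, and it excluded 1 in 8 of the 69 members (11.6%, against 22.2% of all 8125 genes): Sema4b, Lrp5, Acvr1b, Notch2 and Fgfr1, which were lower, and Tgfbr1, Bmpr2 and Acvr2a, which were higher.

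Ligands and intracellular partners of these receptors were taken from lists of the same pathways. Of 59 ligands 15 were among the genes analysed, and 0 of 15 rose or fell in input and 0 of the 13 tested in RPF or TE (limma), with a median log2 change of -0.06 in input, close to that of the receptors. Lama1, a laminin chain bound by integrins, was nearest to the threshold in input with a log2 change of 0.37 (adjusted p = 0.0568), next to Fgf4 at -0.31 (adjusted p = 0.167). Of 77 cytosolic partners 60 were among the genes analysed, with a median of 0.01. Grb10, an adaptor that binds the insulin and IGF1 receptors, was the partner that passed (1 of 60 in input, against 0.34% of all genes, and 1 of 52 in RPF, against 0.623%). It measured 42.5 and 37.5 in control input and 216 and 222 in knockout input, and 39.4 and 81.4 in control RPF and 493 and 342 in knockout RPF. The receptors to which it binds did not pass, as given above, and 0 of the 52 partners passed for TE.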

How the data were processed

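The authors prepared input and RPF libraries with the TruSeq Ribo Profile kit, removed reads of rRNA and tRNA and aligned RPFs with Bowtie (version not given in the sources used here) to known gene models of mm10. The signal values that the authors deposited are named RPKM but were read counts over 1 factor per library: all were whole multiples of a step (within 0.02 read) that gave back whole reads, and coding length (GENCODE M21) was divided out only for levels per kb. Deposited columns of the authors' own comparison (a log2 fold change and a call of differential translation) were not used, and 0 columns of samples were left out.

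Changes were tested with limma 3.58.1 (with a mean trend; two-sided; R 4.3.3), after log2(value + 10), which understates changes of low genes, over genes whose mean value reached 10 in input and 50 in RPF. The mean was taken over both genotypes, so that a gene could pass through 1 genotype alone. For TE the interaction term of genotype with kind of library was taken. P-values were adjusted by Benjamini-Hochberg over all genes tested, at 0.05. With 2 against 2 libraries no exact test reaches that threshold, and the labels state no batch. Count tests were edgeR 4.0.16 and DESeq2 1.42.0 (for TE, with size factors within each library kind). Other alternatives were a pseudocount of 1 or 30, no filter or a stricter one (100 in input, 200 in RPF), equal library medians, thinned reads, a replicate block and leaving out each library. Intervals cover counting error only. The RPF ratio given with an interval pooled the reads of both replicates of a genotype over their joint depth. It weights the deeper library and can differ from the ratio of group means and from limma's change. Each tool was tested on simulated data with 200 changed genes, drawn from all genes tested for TE. Members and lists were chosen with earlier results of these data known. Values in every library were given for members called, the 3 of smallest p per comparison and direction, the highest RPF level of each role, members past 2-fold TE that were tested, and Igf1r, Igf2r and Insr; Itga9, Sema4a, Robo1, Bmpr1a, Nectin1, Lrp6 and Lrp2 were named after their values were seen.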

Additional observations from a re-analysis of the deposited data

How the results depend on the processing

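The median log2 change of members was set against its SD over single pairs of knockout and control libraries. The pairs came from the same libraries, so that a small move with a library left out was largely set in advance. Under all alternatives the median moved by less than this SD. In input it stayed below 0 (-0.099 to -0.026 with a library left out, -0.073 without the 4 intracellular proteins, an alternative chosen after seeing the data), while in RPF and TE it took either sign (-0.039 to 0.081 and -0.059 to 0.06 with a library left out). The number of members called in input was 0 with the stricter filter, 2 with DESeq2, 2 with the replicate block (Epha4 and Cdh3, adjusted p = 0.0286 for the latter) and 1 to 9 with a library left out; the 9 came without control input replicate 2, where 7.38% of all genes were called. In RPF it was 1 with edgeR, 1 with the replicate block (Sema4b, adjusted p = 0.00879) and 0 to 8 with a library left out. In TE it was 1 with DESeq2 and 0 to 17 with a library left out. The highest counts came without knockout RPF replicate 1 (8 and 17 members, with 14.4% and 21.9% of all genes called) and without knockout RPF replicate 2 (5 and 7, with 12.4% and 17.7%), where the lone knockout library is assumed to vary like the others. Members lower in input numbered 17 of the 30 tested with the stricter filter (56.7%, against 43.6% of all genes) and 41 to 50 with a library left out. Members past 2-fold TE numbered 16 with thinned reads and 9 to 22 with a library left out (22 without knockout RPF replicate 1, 18 without knockout RPF replicate 2), both chosen after seeing the data. The share of all genes past 2-fold was not counted in these settings. Whether the higher counts are particular to members was thus not tested.

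Among the members named, the log2 change of Igf2r turned to 0.13 in RPF and 0.19 in TE with thinned reads. That of Insr turned to 0.12 and 0.05 in input without control or knockout input replicate 1, over a range of -0.192 to 0.12, and to 0.16 in RPF and 0.19 in TE without knockout RPF replicate 2, over ranges of -0.805 to 0.157 and -0.821 to 0.193 with a library left out. Of the members named, those gained without knockout RPF replicate 1 were Sema4b, Fgfr1 and Notch2 in RPF and Sema4b, Fgfr1, Lrp5, Ephb4 and Cdh3 in TE, and without knockout RPF replicate 2 Sema4b, Fgfr1 and Tgfbr1 in RPF and Sema4b, Lrp5 and Tgfbr1 in TE. In input, Fzd7 and Ephb4 were gained without control replicate 2, and Cdh3 without either control library or knockout replicate 2. The cause was not tested. Replicate differences of control and knockout correlated little (0.0765 in input and 0.0176 in RPF), which showed no pairing by number between genotypes. At the low RPF depth such pairing could be missed. Whether input and RPF libraries of the same number came from the same culture was not tested, and TE per library was taken between them. With the replicate block 0.868% of all genes were called in input and 2.01% in RPF. Depth limits the RPF and TE values, since 1 read was worth 15.6 normalised units in knockout RPF replicate 2.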
